A study of Mus musculus with 10 samples.

Results

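Gonadotropes are the anterior pituitary cells that make luteinizing hormone and follicle-stimulating hormone. Here a gonadotrope is a barcode, the unit that stands for 1 captured cell, that passed a gate on measured genes. The gate asked for UMIs (unique molecular identifiers, each counting 1 captured RNA molecule) of at least 2 of the 5 genes Gnrhr, Nr5a1, Fshb, Lhb and Tgfbr3l. It also asked for no UMI of Ghrhr, Pcsk2, Oacyl, Avpr1b, C1qa or C1qb, which mark somatotropes, melanotropes, corticotropes or macrophages. It was met by 400 of the 22325 barcodes that passed the quality filters, or 1.79%. Because these 11 genes chose the barcodes, their levels in the chosen barcodes are given as a description, and they are compared between groups only in barcodes chosen without the gene in question.

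The 10 single-cell RNA-seq libraries came from pituitaries of CD1 mice, an outbred stock, dissociated without enzymes. The first 3 groups were 8 weeks old: WT females (3 libraries) and WT males (3 libraries), with 1 library of each sex made on the 10X Genomics platform and the other two by Drop-seq, and 1 Drop-seq library of females of genotype mt/hGRF. The mt/hGRF transgene drives human growth hormone-releasing hormone from a metallothionein promoter, which is active in many tissues. The study describes this hormone as binding a receptor on somatotropes, so its expected target is the somatotrope and not the gonadotrope. The other 2 groups, all Drop-seq, were 13-week-old WT females, virgin (1 library) or lactating (2 libraries). The study's methods describe pooled mice for the 8-week WT Drop-seq libraries and the mt/hGRF library. The study also counts more lactating mice than lactating libraries, so animals were pooled in at least 1 lactating library. The stage of the estrous cycle is not given, and p-values measure only the spread among these libraries. In edgeR's tests the spread of a gene is drawn largely from all genes tested and not from its own libraries alone. Kept barcodes per library numbered 807 to 5253, with 798791 to 4960260 UMIs in all, of which the gonadotropes gave 22170 to 108472. Over 29 pairs of libraries 12 kept barcode sequences were shared, none of them a gonadotrope's.

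The gonadotrope is the pituitary's link between the brain and the gonads. Pulses of gonadotropin-releasing hormone (GnRH) from the hypothalamus act on the receptor encoded by Gnrhr, a Gq-coupled receptor, and activin from within the pituitary acts with GnRH on the follicle-stimulating hormone side. Both hormones share the alpha subunit Cga, which thyrotropes also make for thyroid-stimulating hormone, and differ by their beta subunit, Lhb or Fshb. Nr5a1 (steroidogenic factor 1) is the nuclear receptor that marks this lineage within the pituitary, and the product of Tgfbr3l is a cell-surface relative of the type III TGF-beta receptor. In the mouse, suckling and lactation are known to suppress luteinizing hormone release.

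The start regions of the genes that carry the findings are shown because the same few factors are known to act on them. Each is 250 bases before to 50 bases after the start given by RefSeq on GRCm38.p6, 5′ to 3′ on the gene's strand, with matches to 4 motifs in capitals, searched on both strands. The motifs were AAGGNCA for NR5A1, TAATCN for PITX, TGANTCA for AP-1 and GNGNGGGNG for EGR factors. Of 32851 promoter windows of this length, 20.3% held the NR5A1 motif, 22.0% the PITX motif, 7.81% the AP-1 motif and 39.6% the EGR motif.
Lhb, chr7:45420696-45420995, plus strand: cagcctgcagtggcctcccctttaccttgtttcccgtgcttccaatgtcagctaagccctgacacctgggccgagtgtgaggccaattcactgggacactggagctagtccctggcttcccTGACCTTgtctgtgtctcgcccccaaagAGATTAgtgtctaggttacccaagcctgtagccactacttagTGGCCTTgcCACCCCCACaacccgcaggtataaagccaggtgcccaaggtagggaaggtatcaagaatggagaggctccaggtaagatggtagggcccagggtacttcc
Fshb, chr2:107059602-107059901, minus strand: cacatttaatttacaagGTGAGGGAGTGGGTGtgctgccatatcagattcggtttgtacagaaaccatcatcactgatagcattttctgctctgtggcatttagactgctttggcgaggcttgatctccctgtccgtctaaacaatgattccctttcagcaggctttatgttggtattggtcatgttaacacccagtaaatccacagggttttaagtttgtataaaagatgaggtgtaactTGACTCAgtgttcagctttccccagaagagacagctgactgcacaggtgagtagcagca
Gnrhr, chr5:86197852-86198151, minus strand: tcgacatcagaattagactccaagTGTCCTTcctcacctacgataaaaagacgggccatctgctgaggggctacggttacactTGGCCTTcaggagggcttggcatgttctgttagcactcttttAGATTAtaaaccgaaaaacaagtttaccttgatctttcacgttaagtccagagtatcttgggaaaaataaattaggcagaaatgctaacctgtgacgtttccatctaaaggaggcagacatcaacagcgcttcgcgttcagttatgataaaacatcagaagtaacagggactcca
The Lhb window held 2 NR5A1 matches, 1 PITX match and 1 EGR match, and the Gnrhr window held 2 NR5A1 matches and 1 PITX match. The Fshb window held 1 AP-1 match, which overlapped no other match, and 2 EGR matches that overlap each other. Each match is a string of letters and no measured binding site. On GRCm38 with the GENCODE vM21 annotation, Lhb (chromosome 7, 45420820 to 45421897, plus strand) overlaps Ruvbl2 on the opposite strand. Tgfbr3l (chromosome 8, 4248214 to 4251423) overlaps Gm49320 on the same strand, and Nr5a1 overlaps Nr5a1os on the opposite strand. Reads of such pairs may be uncertain, most of all for Tgfbr3l, since the study kept Drop-seq exonic reads by the strand of the gene. Fshb and Gnrhr overlap no annotated gene.

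Of the 400 gonadotropes, 240 carried exactly 2 of the 5 inclusion genes, 97 carried 3, 58 carried 4 and 5 carried all of them. Lhb had a UMI in 64.0% of them, Tgfbr3l in 63.8%, Gnrhr in 59.3%, Fshb in 54.5% and Nr5a1 in 15.5%. The commonest pair was Lhb with Tgfbr3l alone, in 56 barcodes. The exclusion genes took away 359 of the 759 barcodes that had 2 or more inclusion genes, or 47.3%, mostly through Pcsk2 (294 barcodes), the prohormone convertase that melanotropes need. This loss ran from 16.7% in the mt/hGRF library to 73.4% in the 10X female library.

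Values on either side of the gate were followed in genes it did not use, among barcodes with no exclusion gene. The Cga level, as the median over libraries, was 4.22 UMIs per 10000 UMIs in barcodes with no inclusion gene, 17.4 in the 1173 barcodes with 1, just outside the gate, 65.3 in the 240 with 2, just inside, and 93.2 in the 160 with 3 or more, where libraries ran from 38.9 to 443. Isl1, a LIM homeobox gene of the gonadotrope lineage, had medians of 0.124, 0.273, 0.958 and 1.58 over the same steps. Those of Gata2 were 0.199, 0.225, 1.19 and 1.16, and its levels pooled over libraries 0.173, 0.434, 2.20 and 2.94. Median UMIs per barcode rose over these steps too, from 631 to 741, 875 and 1246.

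The label was checked against 8 gonadotrope markers outside the gate, a list written with earlier results of these data known. Cga had a UMI in 93.8% of gonadotropes, 28.1% of the 21925 other barcodes and 16.7% of 878 macrophage barcodes. Macrophages should lack Cga, so the last value was taken as a measure of free RNA, although doublets were not called. Over libraries these Cga shares ran from 83.3% to 100%, from 14.7% to 65.8% and from 2.86% to 60.7%. With each barcode thinned to 300 UMIs, the pooled Cga shares were 79.0%, 15.4% and 8.32%. Over libraries they then ran from 66.7% to 93.6%, from 7.56% to 44.6% and from 0% to 41.1%. Gata2 was seen in 19.3% of gonadotropes against 1.73% of others and 0.114% of macrophages, Isl1 in 14.0% against 1.20% and 0 of 878, Rasgrf1 in 26.0% against 4.14% and 0.683%, Spp1 in 15.5% against 1.31% and 3.53%, and Foxp2 in 8.75% against 0.766% and 0 of 878. Foxl2, a forkhead factor that gonadotropes need for Fshb, was at the limit of detection, with a UMI in 1 of 400 gonadotropes, and Nr0b1 was seen in 6 of 400. Median UMIs per barcode ranged over libraries from 737 to 1646 in gonadotropes, 532 to 1234 in the others and 630.5 to 1683 in macrophages.

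Hormone RNA of other cell types was present in the gonadotrope barcodes. Gh had a UMI in 99.5% of them, Prl in 91.5% and Pomc in 95% of them, against 97.6%, 87.0% and 78.4% of macrophages. The median share of a gonadotrope's UMIs that came from Gh, Prl and Pomc together ranged from 1.77% to 20.1% over the 10 libraries, against 5.94% to 17.7% in the other barcodes and 0.259% to 5.44% in macrophages. Between 7.14% and 51.9% of a library's gonadotropes took over 20% of their UMIs from these 3 hormones, with the highest share in the WT female library 2. The gonadotrope median was above that of the other barcodes in the 10X male library (19.2% against 14.4%) and female library 2 (20.1% against 15.1%). It was also above in the 10X female library (9.41% against 8.28%), and below in every remaining library. Gonadotropes without a Gnrhr UMI had medians of 55.6% in the 10X male library and 47.9% in female library 2, against 7.22% and 9.03% with one. Only in female library 3 was the median lower without Gnrhr. Tshb, the beta subunit of thyroid-stimulating hormone, was seen in 12.3% of gonadotropes and 5.64% of others. Whether such barcodes hold more than 1 cell was not tested. Gonadotropes with at most 20% of their UMIs from these hormones were taken as an alternative, chosen after seeing the data.

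**Figure D1:**
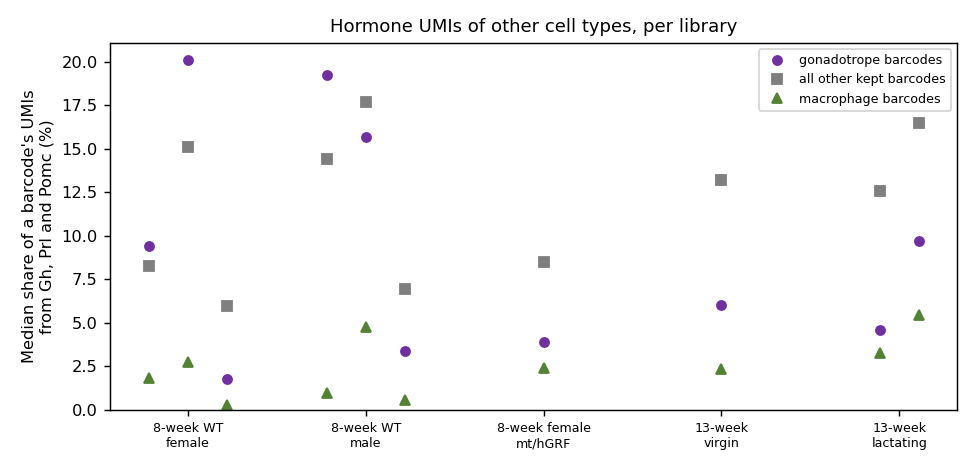
The y axis is the median percent of a barcode's UMIs from Gh, Prl and Pomc, and each point is 1 library, by group on the x axis, for gonadotropes (circles), all other kept barcodes (squares) and macrophage barcodes (triangles). Gonadotropes lie between 1.77% and 20.1%, above the macrophages of the same library in each of the 10 libraries.

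The study asked how the sexes differ in cell composition. Gonadotropes made up a larger share of the male than of the female library in each of the 3 pairs of 8-week WT libraries (the 10X pair and the Drop-seq pairs 2 and 3, whose titles share a tag), but the ranges overlapped. In females they were 1.05% of kept barcodes in the 10X library (17 of 1621, exact 95% binomial interval 0.612 to 1.67%), 3.35% in the Drop-seq library 2 (27 of 807) and 1.88% in library 3 (23 of 1226). In males they were 2.92% in the 10X library (47 of 1610), 5.41% in library 2 (45 of 832) and 4.38% in library 3 (85 of 1942). The mean was 4.23% ± 1.25 in males against 2.09% ± 1.16 in females (SD, n = 3 each), 2.03 times as high, and the exact permutation test gave p = 0.2, where 3 against 3 libraries cannot go below 0.1. Female library 2 lay above the 10X male library.

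The gate finds more genes in deeper barcodes, and so the shares were repeated with each barcode thinned to 300 UMIs. They were then 0.494%, 0.743% and 0.734% in females and 1.74%, 1.80% and 1.91% in males. The sexes no longer overlapped, at 1.82% ± 0.0813 against 0.657% ± 0.141 (SD, n = 3 each; exact permutation p = 0.1, the smallest possible). Since the gate counts Fshb, the share was also taken over the other 4 inclusion genes, where it was 2.81% in males and 1.91% in females with p = 0.2 (exact permutation test, n = 3 each). With no exclusion genes asked for, the shares were 8.47% in males and 4.44% in females, without overlap (exact permutation p = 0.1, n = 3 each). With at most 20% of UMIs from Gh, Prl and Pomc the shares were 2.70% ± 1.09 in males and 1.33% ± 0.509 in females (SD, n = 3 each; exact permutation p = 0.3). Barcodes with a UMI of Gnrhr or Nr5a1 and no exclusion gene, a choice that uses neither beta subunit, were 1.11%, 2.73% and 2.12% of the female and 1.43%, 2.16% and 3.6% of the male libraries, so that the order turned in the Drop-seq pair 2. Intervals cover counting error only.

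In the remaining groups gonadotropes were 1.08% of kept barcodes in the mt/hGRF library (30 of 2768), 1.93% in the virgin library (70 of 3627), and 0.531% (14 of 2639) and 0.8% (42 of 5253) in the lactating libraries. After thinning, the virgin share was 1.05% and the lactating shares 0.227% and 0.152%. Both lactating libraries lay below the virgin library on each scale, with no test for 1 library against 2. A share of barcodes moves with the number of other cells, and the gate counts Lhb and Fshb, so fewer gonadotropes, less Lhb or Fshb RNA in each and more cells of other kinds cannot be told apart. Over the 4 inclusion genes other than Lhb, the share was 1.27% in the virgin library and 0.531% and 0.552% in the lactating libraries. Barcodes with a UMI of Gnrhr or Nr5a1 and no exclusion gene were 2.10% of the virgin library (76 of 3627) and 1.1% (29 of 2639) and 1.52% (80 of 5253) of the lactating libraries, a narrower gap.

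**Figure D2:**
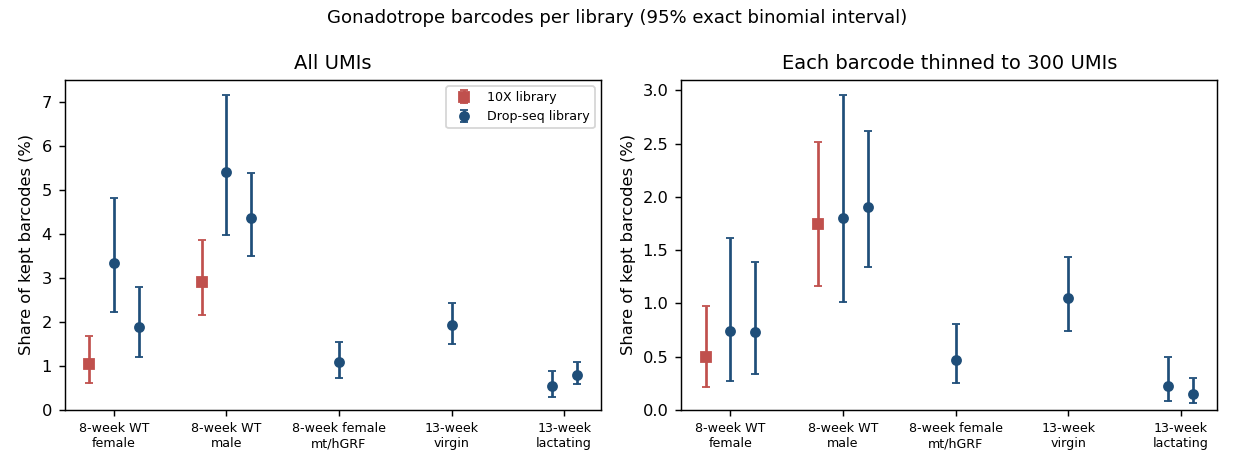
The y axes are the percent of kept barcodes that passed the gonadotrope gate, with all UMIs (left) and with each barcode thinned to 300 UMIs (right); each point is 1 library, squares 10X and circles Drop-seq, with its exact 95% binomial interval. The thinned male shares, 1.74% to 1.91%, lie above every thinned female share of the 8-week WT libraries.

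Fshb differed most between the sexes among the gate's genes. In barcodes chosen by 2 or more of the other 4 inclusion genes, its level in females was 0.291 UMIs per 10000 in the 10X library, 0 in library 2, where none of 24 barcodes held a UMI and a count of 0 allows up to 0.898, and 4.08 in library 3. In males it was 20.4, 11.4 and 15.1 in the same order. Every male library lay above every female library, at 15.7 ± 4.54 against 1.46 ± 2.28 UMIs per 10000 (SD, n = 3 each; exact permutation p = 0.1, the smallest possible).

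The log2 fold change of Fshb, male over female, was 3.75 ± 0.89 (SE), and edgeR's quasi-likelihood test with platform in the model gave an adjusted p of 0.167 over the 396 genes tested. DESeq2 gave 3.90 with an adjusted p of 0.0479. With the 3 male and female pairs as a block, edgeR gave 3.995 with an adjusted p of 0.0109; the labels do not say what the tags shared by the Drop-seq pairs stand for, and the 10X pair shares its platform alone. Over all 16 alternatives, each of which had Fshb higher in males, the adjusted p ranged from 3.9e-09 without the WT female library 3 to 0.999 in the Drop-seq libraries alone, and 8 of the 16 passed 0.05. Without female library 3 the difference was 6.75. Fshb was also higher in the other barcodes of the male libraries, at 1.04 to 2.68 UMIs per 10000, than in those of the female libraries, at 0.0111 to 0.170. What such RNA outside the gate adds to the gated level was not tested.

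In the remaining libraries the Fshb level, chosen the same way, was 3.42 in mt/hGRF, 8.67 in the virgin library and 4.36 and 1.63 in the lactating libraries. From high to low the groups ran male, virgin, mt/hGRF, lactating and WT female. The last 3 lay within the spread of one another, since the WT female range of 0 to 4.08 overlaps the lactating values and holds the mt/hGRF value. Neither the lactating against virgin difference (log2 fold change -1.69, edgeR adjusted p = 1) nor that of mt/hGRF against WT females (1.03, edgeR adjusted p = 1) passed.

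Lhb did not follow Fshb. In barcodes chosen without it, the female levels were 54.6, 3.20 and 5.25 UMIs per 10000 and the male levels 16.7, 8.52 and 7.69. A single barcode held 118 of the 143 Lhb UMIs of the 10X female library, and without it that library stood at 10.4. The log2 fold change, male over female, was -0.004 ± 1.08 (SE; edgeR adjusted p = 0.998), with an exact permutation p of 1 for the levels (n = 3 each). It turned to 1.04 without the barcode richest in Lhb in each library, an alternative chosen after seeing the data, and no alternative passed 0.05.

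Both lactating libraries had less Lhb than the virgin library. The comparison was added after the levels were seen and rests on 1 virgin library, so it is a description with no test. The virgin level was 35.6 UMIs per 10000, with a UMI in 21 of 46 barcodes, and the lactating levels were 1.35, from 3 UMIs in 14 barcodes, and 2.48, from 8 UMIs in 29 barcodes. The log2 fold change, lactating over virgin, was -4.18 in edgeR's fit and -4.16 with DESeq2. In the other barcodes Lhb was at 1.43 in the virgin library and at 0.227 and 0.241 in the lactating ones, and what such RNA outside the gate adds was not tested. The virgin library also had 1 barcode with 108 of its 175 Lhb UMIs. Without the richest barcode of each library it stood at 15.5, against 1.07 and 1.60, and the difference was -3.49. The 8-week female Drop-seq libraries stood at 3.20 and 5.25 in WT and 3.97 in mt/hGRF. Without their richest barcodes they stood at 0.920, 3.33 and 2.38, a range that holds both lactating values. By level the virgin library thus lay above these 8-week libraries too, and not above the lactating ones alone.

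Gnrhr, chosen without itself, was at 7.11, 5.86 and 9.87 UMIs per 10000 in WT females and 8.48, 2.46 and 8.91 in WT males, and the sexes overlapped (log2 fold change -0.07 ± 0.53, edgeR adjusted p = 0.989). It was highest in the virgin library, at 13.3, with 11.6 and 6.43 in the lactating libraries and 3.04 in mt/hGRF. The log2 fold change was -0.49 (SE 0.73) for lactating over virgin and -1.37 (SE 0.89) for mt/hGRF over WT females, neither past the edgeR test (adjusted p = 1 and 0.971). Tgfbr3l ran from 3.54 to 9.06 in WT females and from 5.19 to 11.2 in WT males (log2 fold change 0.27 ± 0.57, edgeR adjusted p = 0.997). Nr5a1 was too low for the sex test, at 0.332 to 4.04 in females and 0.406 to 0.753 in males.

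**Figure D3:**
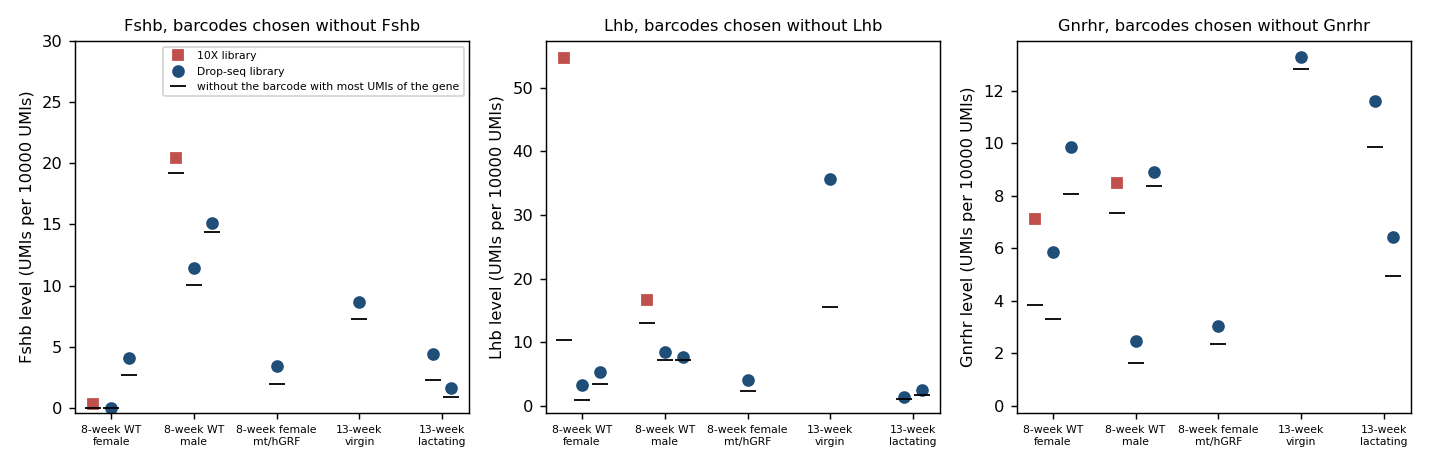
The y axes are UMIs of Fshb, Lhb or Gnrhr per 10000 UMIs in barcodes chosen by 2 or more of the other inclusion genes; each point is 1 library (squares 10X, circles Drop-seq) and each dash is the same library without its barcode richest in that gene. The 3 male Fshb levels (11.4 to 20.4) lie above all female levels, and the dashes show how far 1 barcode lifts Lhb in the 10X female library (54.6 to 10.4) and the virgin library (35.6 to 15.5).

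Both beta subunits were then followed in single barcodes, in the 392 barcodes with a UMI of Gnrhr or Nr5a1 and no exclusion gene, chosen without regard to Lhb and Fshb. Fshb had a UMI in 78.3%, 61.1% and 68.6% of these barcodes in the male libraries and in 5.56%, 4.55% and 19.2% in the female libraries. Lhb had a UMI in 56.5%, 50% and 48.6% in males and in 38.9%, 36.4% and 30.8% in females. Both genes were seen together in 41.0% ± 14.5 of male and 3.13% ± 2.85 of female barcodes (SD, n = 3 libraries each). No male library overlapped a female library for Fshb, Lhb or both together, with an exact permutation p of 0.1 for each of the 3 shares.

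Thinned to 300 UMIs a barcode, the Fshb share was 37.4% ± 6.21 in males and 5.36% ± 5.81 in females. Both genes were found together in 6 of 111 male and 0 of 66 female barcodes, with library means of 6.58% and 0% (exact permutation p = 0.1 for this share and the Fshb share). The Lhb share was then 19.3% ± 7.65 against 16.7% ± 1.40 (exact permutation p = 0.8, n = 3 each), so that at equal depth the ranges of the sexes parted for Fshb and not for Lhb. Macrophage shares were counted with all UMIs and belong beside the shares before thinning. In macrophages, the Fshb share was 2.72% in male and 0% in female libraries, and the Lhb share 2.72% and 0% (0 of 124 barcodes in females for each). Nearly all of this came from male library 2 (3 of 56 for Fshb and 4 of 56 for Lhb), with Fshb in 1 of 53 and 0 of 38 and Lhb in 0 of either in the other male libraries. Median UMIs per barcode ran from 669 to 1584 in the Gnrhr or Nr5a1 barcodes and from 630.5 to 1683 in macrophages.

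For the 13-week barcodes chosen in this way, the shares are given with no test, since there was 1 virgin library. Lhb was seen in 10.3% and 11.3% of the lactating barcodes and in 40.8% of the virgin barcodes, and Fshb in 20.7% and 11.3% against 31.6%. Neither was seen in 75.9% and 78.8% of lactating and 46.1% of virgin barcodes. After thinning, Lhb was seen in 0 of 29 and in 3.75% of 80 lactating barcodes and in 19.7% of virgin barcodes. In macrophages of these libraries Lhb was seen in 1.56% and 0% of lactating and 2.69% of virgin barcodes. These macrophage shares use all UMIs and belong beside the shares before thinning. The mt/hGRF library had Lhb in 23.3% and Fshb in 20% of 30 barcodes.

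**Figure D4:**
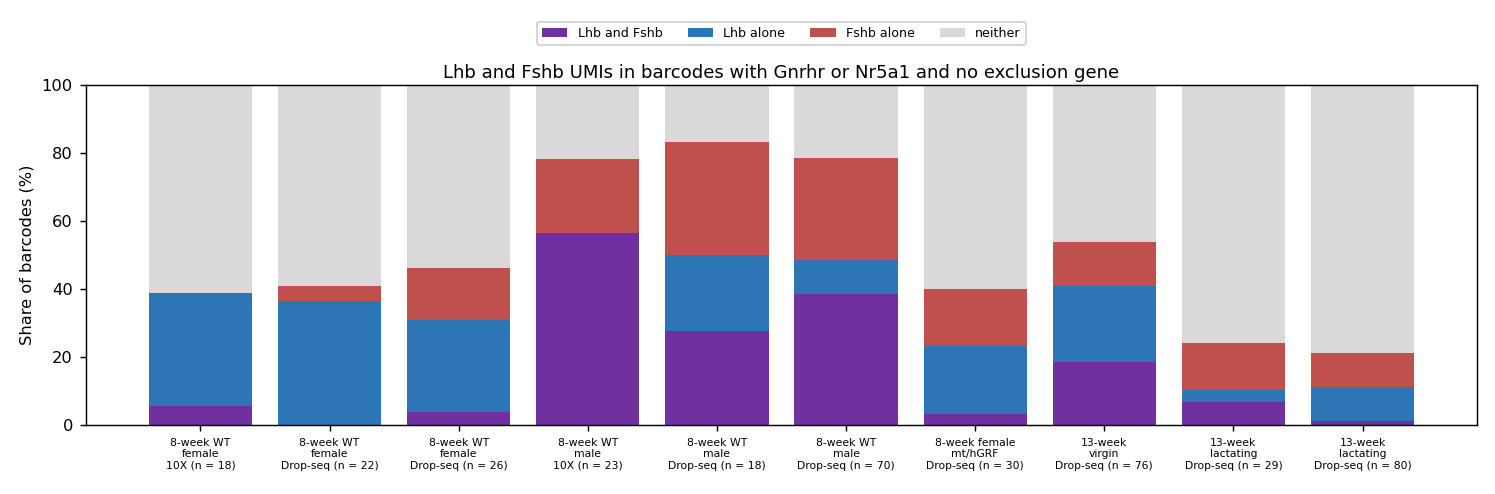
Each bar is 1 library and splits its barcodes with Gnrhr or Nr5a1 and no exclusion gene (n under each bar) into the percent with UMIs of Lhb and Fshb, of Lhb alone, of Fshb alone and of neither. Fshb, alone or with Lhb, fills 61.1% to 78.3% of the male bars and 4.55% to 19.2% of the 8-week WT female bars, and neither gene was seen in 75.9% and 78.8% of the lactating barcodes.

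The genes that set gonadotropes apart from the rest of the pituitary were sought among those the gate did not use, by comparing the summed counts of the gonadotropes with those of all other kept barcodes within each of the 8 libraries with at least 20 gonadotropes. The 10X female library (17) and the lactating library 1 (14) dropped out. Of 10922 genes tested with edgeR, 955 differed (8.74% of those tested), 230 higher (2.11%) and 725 lower (6.64%) in gonadotropes. The median gene stood at -0.31 on the log2 scale, a shift that depends on the scaling, so log2 fold changes below are given relative to that median, except those said to be uncentred. The adjusted p tests the uncentred fold change, before the median was taken off, and "rose", "fell" and "passed" refer to that test. Under RLE scaling, where the median gene stood at -0.02 and both folds nearly coincide, 61 of the 71 called genes named by the lists or by rank stayed past the threshold. With RLE scaling 310 genes were higher and 273 lower, with TMMwsp 235 and 574, and with DESeq2 275 and 124. With at least 3 inclusion genes asked for, 163 were higher and 1066 lower, and after thinning 67 and 900 of 5984 tested.

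The shared alpha subunit Cga rose in gonadotropes. Its level was 87.1 UMIs per 10000 in gonadotropes and 22.2 in others of the 10X male library, and, in the same order, 53.2 and 4.82 in mt/hGRF, 122 and 7.13 in the virgin library, and 134 and 7.77 in the lactating library 2. In the 8-week Drop-seq libraries it was 93.9 and 22.3 in female 2, 80.1 and 32.6 in male 2, 51.3 and 4.33 in female 3, and 68.1 and 10.6 in male 3. Gonadotropes were higher in 8 of 8 libraries, by 2.75 ± 0.19 (SE) log2 units more than the median gene (edgeR adjusted p = 3.7e-33). Cga stayed past the threshold under each of 17 alternatives. Of the 8 markers outside the gate that checked the label, 7 could be tested and all 7 rose, with a median 2.96 log2 units above that of all genes. The list was written with earlier results of these data known, so it is not an independent check.

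Of 13 transcription factors of the lineage that were tested, 9 rose and 1 fell, where 2.11% of all genes rose and 6.64% fell, and the list's median lay 2.44 log2 units above that of all genes. Foxp2, Gata2, Isl1 and Nr0b1 were also among the markers that checked the label, so these counts overlap. Lhx4, a LIM homeobox factor of early pituitary development, rose by 4.73 ± 0.62 (SE), Foxp2 by 3.02 ± 0.40, Isl1 by 2.96 ± 0.30, Gata2, which acts on the Cga promoter, by 2.92 ± 0.27, Tle6, a Groucho-family co-repressor, by 2.88 ± 0.56, and Eya1, a transcriptional co-activator and phosphatase, by 2.44 ± 0.29. Sox11 rose by 1.64 ± 0.26 and Pitx1, a homeobox factor of the whole anterior pituitary, by 1.42 ± 0.24. Nr0b1 (DAX-1), the partner of Nr5a1, rose by 3.49 ± 0.89, although it was higher in 3 of 8 libraries and lower in 5. The edgeR adjusted p ranged from 2.5e-19 for Gata2 to 0.00738 for Nr0b1. Tle6 was higher in 4 of 8 libraries and lower in 4, so that its rise and that of Nr0b1 rest on few libraries. Lhx4 was higher in 6 of 8 libraries and was not tested after thinning. Pitx1 and Sox11 did not pass once barcodes were thinned to 300 UMIs (uncentred 0.53 and 1.04 against 1.11 and 1.33 with all UMIs, adjusted p = 0.351 and 0.0597). Relative to the thinned fit's median gene, at -0.72, Pitx1 stood at 1.25 and Sox11 at 1.76. Nor did they pass with at least 3 inclusion genes (adjusted p = 0.156 and 0.0853).

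Gata2 was not at 1 level across the libraries, running from 0.583 UMIs per 10000 in the 10X female library to 6.45 in male 3 (median 1.33), and from 0.0974 to 0.429 in the other barcodes. Isl1 ran from 0.291 to 4.51 in gonadotropes and from 0.0963 to 0.288 in the others. The lowest gonadotrope value was that of the 10X female library, where 5.88% of 17 gonadotropes had Isl1, so the narrow gap rests on few UMIs. Six6, a homeobox factor of eye and pituitary development, was the member that fell, with an uncentred fold of -0.75 (edgeR adjusted p = 0.0440) and -0.45 relative to the median. It was nonetheless higher in gonadotropes in 4 of 8 libraries. It passed no more under RLE, TMMwsp or DESeq2 (adjusted p = 0.382, 0.0694 and 0.616), in the Drop-seq libraries alone or against barcodes with no inclusion gene (adjusted p = 0.101 for both). It did pass after thinning, at an uncentred -1.24, and with at least 3 inclusion genes, at -1.41 (edgeR adjusted p = 0.0420 and 0.0225). Relative to the medians of those fits Six6 stood at -0.53 and -0.74. Lhx3, Sox4 and Tle1 did not pass, at -0.02, 0.15 and 0.95 relative to the median.

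Of 28 genes tested of the GnRH signalling list, 5 rose and 8 fell, against 2.11% and 6.64% of all genes (5 and 3 with DESeq2), and the median lay 0.20 log2 units below that of all genes. Spp1 and Rasgrf1, which rose, were also among the markers that checked the label. Spp1 (osteopontin) rose by 3.02 ± 0.29 (SE) and Prkcb, the protein kinase C beta gene downstream of Gq, by 2.93 ± 0.29. Rasgrf1, a calcium-regulated Ras exchange factor, rose by 2.52 ± 0.24, the inositol trisphosphate receptor Itpr1 by 1.63 ± 0.28 and arrestin Arrb2 by 1.5 ± 0.25. Over these 5 the edgeR adjusted p ran from 8.6e-19 for Spp1 to 1.0e-04 for Arrb2. After thinning, Itpr1 stood at an uncentred 0.31 and Arrb2 at 0.76, neither past the test (adjusted p = 0.683 and 0.177), nor did they pass with at least 3 inclusion genes (0.102 and 0.12). Relative to the thinned fit's median gene, at -0.72, Itpr1 stood at 1.03 and Arrb2 at 1.48. The Gq proteins Gnaq and Gna11, and the kinases Mapk3 and Map2k1, did not pass, at 0.28, 0.13, -0.68 and 0.47. Among those that fell were 5 immediate early or quickly induced genes: Fos by 2.05, Egr1 by 1.94, Jun by 1.24, Dusp1 by 2.57 and Rgs2 by 1.79 relative to the median. DESeq2 did not call Egr1 or Jun (adjusted p = 0.0692 and 0.138). Plcb4 and Camk2d fell too, by 0.66 and 0.74 relative to the median (edgeR adjusted p = 9.8e-04 and 0.0384), and DESeq2 called neither (adjusted p = 0.129 and 0.391).

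Of 14 genes on a list of dissociation and immediate early genes, 10 fell and 0 rose, with a median 1.09 log2 units below that of all genes, against 6.64% of all genes lower. Fos, Egr1, Jun and Dusp1 are on both lists, so that 6 of the 10 are further genes. One of these, Nr4a2, was nonetheless higher in gonadotropes in 5 of 8 libraries. DESeq2 called 3 of the 10, RLE scaling 7 and TMMwsp 9. The Fos level was 0.389 in gonadotropes and 10.0 in others of female 3, 2.40 and 9.96 in male 3, and 1.95 and 4.27 in mt/hGRF, while it was at or under 1.43 in the others of each remaining library. Dusp6, a phosphatase that acts on ERK, had no UMI among 449996 gonadotrope UMIs and was at least 2.83-fold lower, the floor being 3 counts over the group, but it did not pass with DESeq2 (adjusted p = 0.0502).

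Of 16 genes tested of the activin, inhibin and BMP pathway 2 differed, where 8.74% of all genes did. Tgfbr3 (betaglycan), the inhibin co-receptor, rose by 1.89 ± 0.31 (SE; edgeR adjusted p = 2.3e-05), from 0.398 to 2.33 UMIs per 10000 in gonadotropes against 0.181 to 0.355 in the others, with no overlap. After thinning it stood at an uncentred 0.62, against 1.58 with all UMIs, and did not pass (adjusted p = 0.43). Relative to the thinned fit's median gene, at -0.72, Tgfbr3 stood at 1.34. Igsf1, an immunoglobulin-family membrane protein, fell by 0.71 (edgeR adjusted p = 0.00605, and 0.102 with RLE and 0.221 with DESeq2). Inhba and Inhbb, the activin subunits, had 3 and 5 UMIs in all gonadotropes, and Fst (follistatin) had none, so they were not tested.

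Among 16 receptors for steroids and other hormones, 2 rose and 2 fell, against 2.11% and 6.64% of all genes. Adcyap1r1, the receptor for the peptide PACAP, rose by 3.39 ± 0.52 (SE) and the progesterone receptor Pgr by 2.46 ± 0.40, with edgeR adjusted p of 3.0e-07 and 5.6e-06. Each was higher in gonadotropes in 6 of 8 libraries. Pgr was at 2.92 UMIs per 10000 in mt/hGRF gonadotropes and at 0 in male 2 and the lactating library 1. After thinning Pgr stood at an uncentred 1.56, against 2.15 with all UMIs, and did not pass (adjusted p = 0.0773), nor with at least 3 inclusion genes (0.138). Relative to the thinned fit's median gene, at -0.72, Pgr stood at 2.28. The estrogen receptor Esr1 stood 0.92 above the median gene without passing (edgeR adjusted p = 0.263). Thrb fell by 0.99 and Gabrb1, a GABA receptor subunit, by 1.23. Neither passed with DESeq2 (adjusted p = 0.283 and 0.0502), nor Thrb with RLE (0.167).

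Of 19 genes of the granin and secretion list 4 rose and 3 fell, against 2.11% and 6.64% of all genes. Scg2 (secretogranin II) rose by 1.32 ± 0.18 (SE), the prohormone convertase Pcsk1 by 1.31 ± 0.23, Chga by 1.25 ± 0.17 and the syntaxin Stx1a by 1.69 ± 0.47. Scg2 ran from 11.4 to 51.3 UMIs per 10000 in the gonadotropes and from 4.42 to 16.8 in the others. With at least 3 inclusion genes asked for, the uncentred fold changes were 0.72 for Scg2, 0.42 for Chga, 0.96 for Pcsk1 and 1.35 for Stx1a, against 1.01, 0.94, 1.00 and 1.38 without that demand, and none passed (adjusted p = 0.106, 0.369, 0.0635 and 0.053). The median gene then stood at -0.67 and not at -0.31, so part of each change is that shift. Relative to that median Scg2 stood at 1.395, Chga at 1.09 and Pcsk1 at 1.63. Syt1, the synaptic vesicle calcium sensor, fell by 1.20 and Chgb by 0.45, the latter lost under RLE and DESeq2 (adjusted p = 0.134 and 0.261). Vgf had no UMI among the gonadotropes and was at least 2.38-fold lower, but did not pass with DESeq2 (adjusted p = 0.216). Of 14 excitability channels 2 rose and 1 fell. The sodium channel Scn3a rose by 1.66 ± 0.19 (edgeR adjusted p = 3.4e-10, but 0.112 with at least 3 inclusion genes) and the L-type calcium channel Cacna1c by 1.47 ± 0.38 (adjusted p = 0.030), and its relative Cacna1d fell by 0.75, a call lost under RLE, DESeq2 and thinning (adjusted p = 0.0634, 0.147 and 0.0935). Stx1a and Cacna1c passed in 7 of 16 and 8 of 17 alternatives.

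**Figure D5:**
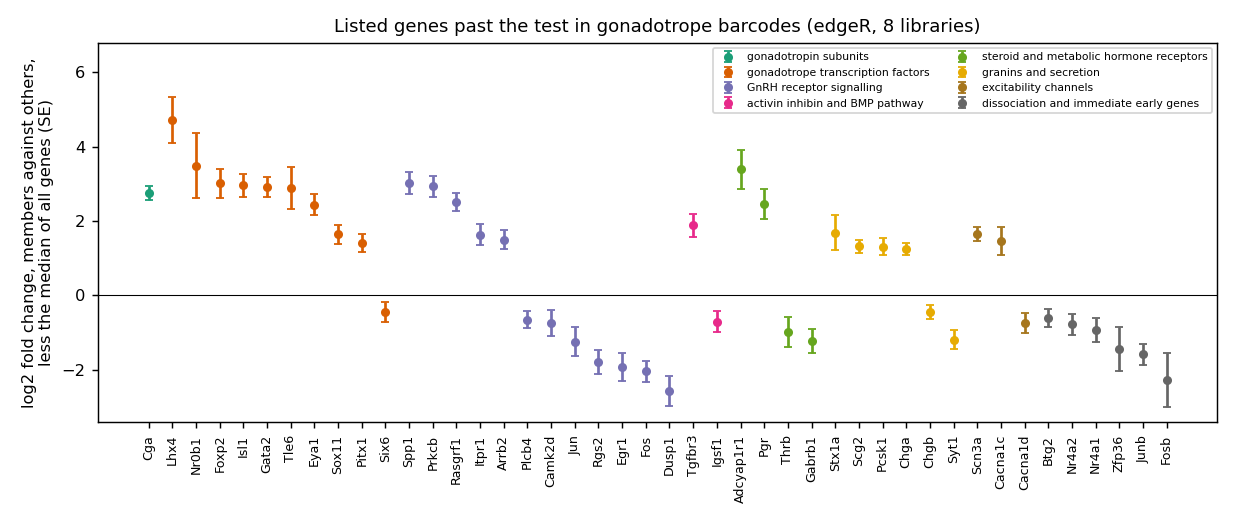
The y axis is the log2 fold change of gonadotropes over all other kept barcodes less the median of all genes, with its SE, for the genes of 8 lists (colours) that passed edgeR's test over 8 libraries; Dusp6 and Vgf, with no gonadotrope UMI, are left out. The 9 higher transcription factors lie between 1.42 and 4.73, and the immediate early genes lie below 0.

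With at most 20% of UMIs from Gh, Prl and Pomc in gonadotropes and others, 232 genes were higher and 972 lower of 9692 tested. Of 71 called genes named by the lists or by rank, 69 could be tested and 66 stayed past the threshold, and relative to that fit's median 52 stood farther from 0 than without the limit and 17 closer. By over 1.5-fold, 13 stood farther and 1, Pax7, closer. Of these 13, Cga stood at 3.54 and Chga at 2.02, while Rgs2 stood at -3.11, Six6 at -1.19, Igsf1 at -1.30, Chgb at -1.07, Fosb at -3.598 and Dcn, a stromal gene, at -4.55, all relative to the median; the rest were Pomc, C1qc and 3 globins. Of the receptors 2 rose and 4 fell of 15, with the thyroid hormone receptor Thra (uncentred -1.99) and the glucocorticoid receptor Nr3c1 (-1.01) now past the threshold (adjusted p = 0.00107 and 0.0361). Of the dissociation and immediate early genes 11 of 15 fell. Stx1a and Cacna1c did not pass, at 1.65 and 1.53 (adjusted p = 0.1 and 0.0501), and Nr0b1 was too low to test.

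Outside the lists, the 15 genes with the largest rises that were higher in 8 of 8 libraries included Atf7ip2 at 4.79 ± 0.55 (SE), Ttc24 at 4.29 ± 0.31, Hmcn2 at 3.70 ± 0.50, Nefm, the medium neurofilament chain, at 3.20 ± 0.30, Rgs4, a GTPase-activating protein for Gq and Gi, at 3.18 ± 0.34, Dlgap1, a synaptic scaffold, at 2.97 ± 0.34, Neurod1, a proneural factor, at 2.80 ± 0.33, and Khdrbs2 and Ptchd1 at 2.70 and 2.66. Ttc24, which codes for a tetratricopeptide repeat protein (chromosome 3, 88069410 to 88078304, GRCm38), was at 0.398 to 4.52 UMIs per 10000 in gonadotropes and 0.0452 to 0.206 in the others, with no overlap. All but Ptchd1 passed under each alternative. Ptchd1 had an adjusted p of 0.0735 after thinning.

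Uba6, a ubiquitin-activating enzyme, was also among the 15, at 2.85 ± 0.22 (SE) above the median gene. It lies 7950 bases beyond Gnrhr on the same strand of chromosome 5 (86109287 to 86172803, GRCm38, against 86180754 to 86197901), in the direction of transcription. Its level was higher in gonadotropes with a Gnrhr UMI than in those without in 9 of 10 libraries, with medians of 3.70 and 0.534 UMIs per 10000, against 0.277 to 0.782 in the other barcodes. In mt/hGRF the order was the opposite, 4.06 with and 5.41 without Gnrhr. Since Gnrhr chose part of the gonadotropes, this split is a description, and reads that run past the end of Gnrhr were not tested for.

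The 5 genes with the lowest fitted folds, Tyrobp, Fcer1g, Cx3cr1, Csf1r and Cd52, are macrophage or leukocyte genes with no UMI in the 449996 of the gonadotropes. They were at least 22.5, 16.9, 11.7, 7.32 and 7.75-fold lower, bounds that do not rank them. The macrophage gene C1qc, which had UMIs, fell by 4.89 and the globin Hba-a1 by 4.74 relative to the median. The gate removes barcodes with C1qa or C1qb, so this follows in part from the choice of barcodes, as does the fall of the melanotrope genes Pax7 and Pomc through Pcsk2 and Oacyl (Pomc not with DESeq2, adjusted p = 0.116). Red blood cell globins (4 of 4 tested) and the stromal genes Dcn and Col1a2 were lower too, the globin Hba-a2 not with DESeq2 (adjusted p = 0.51). Gh and Prl did not pass, at an uncentred -0.51 and -0.44 (edgeR adjusted p = 0.166 and 0.207). They passed with at least 3 inclusion genes, at an uncentred -1.76 and -2.11 where the median gene stood at -0.67, and after thinning, at -1.27 and -1.18 where it stood at -0.72 (adjusted p at or under 4.95e-05), so that part of either fold is that shift. Tshb, at an uncentred -0.60 (adjusted p = 0.119), passed as lower in the same settings (adjusted p = 0.00364 and 0.044) and with at most 20% of UMIs from Gh, Prl and Pomc (1.6e-06). Of the other markers tested, Dio2, a deiodinase of thyrotropes, fell by 1.31 but passed in 4 of 16 alternatives, and none passed of the lactotrope genes Drd2 and Agtr1a, 2 stem cell genes (Sox2 and Sox9), 1 endothelial gene (Cdh5), 1 corticotrope gene besides Pomc (Tbx19) and 3 proliferation genes (Mki67, Top2a and Cenpf). With at least 3 inclusion genes Tbx19 and Mki67 fell (adjusted p = 0.0177 and 0.0126). Pituicyte genes were too low to test.

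Splitting the gonadotropes by Gnrhr, a description since the gate used it, separated 237 with from 163 without. Isl1 was higher with Gnrhr in 9 of 10 libraries (medians 1.86 and 0.260 UMIs per 10000). Gh was higher without Gnrhr in 9 of 10 (medians 732 and 1240), as was Pomc (193 and 277), and Prl was higher without it in 8 of 10 (244 and 571). Cga did not separate, being higher with Gnrhr in 4 of 10.

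Beyond the gate's genes, male and female gonadotropes differed in few genes at this depth. Of 628 genes tested, 4 passed (0.637%), 2 higher (0.318%) and 2 lower (0.318%) in males, and 25 had an unadjusted p under 0.05. Xist, the RNA that silences 1 X chromosome in females, stood at 124, 23.1 and 127 UMIs per 10000 in the female libraries and at 0.135, 0 and 0 in the male ones (log2 fold change -10.2, edgeR adjusted p = 5.6e-07). Its antisense partner Tsix (-5.43, edgeR adjusted p = 0.0307; DESeq2 adjusted p = 0.00607) overlaps it, so that their reads may not be told apart. Eif2s3y, a Y-linked gene, was at 2.84, 5.76 and 5.35 in males and 0 in females (edgeR adjusted p = 0.0011). The sexes of all 6 libraries matched their labels.

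The other called gene was Cwc22, a splicing factor gene whose copies vary in number between mice, so that its reads may be uncertain, and which was named after its values were seen. It was at 0.540, 6.36 and 15.4 in males and 0.583, 0 and 0 in females, so the 10X libraries overlapped (log2 fold change 4.58 ± 1.04 SE, edgeR adjusted p = 0.0403), and it did not pass with RLE scaling or DESeq2. It also stood at 9.17 in the virgin library against 0.902 and 0 in the lactating ones. In all, 7 genes passed in gonadotropes with at most 20% of UMIs from Gh, Prl and Pomc, and 8 with the 3 pairs as a block. Without female library 2 there were 8 and without female library 3 there were 2. Cga did not pass, at 238, 93.9 and 51.3 in females and 87.1, 80.1 and 68.1 in males (log2 fold change -0.47, exact permutation p = 0.7 for the levels, n = 3 each). Gata2 was at 0.583, 1.11 and 1.55 in females and at 0.810, 3.58 and 6.45 in males (log2 fold change 1.66 ± 0.60 SE, edgeR adjusted p = 0.523).

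RNA of other cells differed between these libraries as well. Prl in the gonadotropes was at 344, 1486 and 190 UMIs per 10000 in females and 172, 156 and 80.8 in males, without overlap (exact permutation p = 0.1, edgeR adjusted p = 0.837), and Prl in the other barcodes ran from 199 to 653 and from 111 to 207. The globin Hbb-bs was at 2.33, 1.67 and 12.0 in females and 2.57, 133 and 1.75 in males, high in male library 2 (log2 fold change 2.84, edgeR adjusted p = 0.655), and it passed with no filter on low counts (edgeR adjusted p = 0.0329). Without male library 3, Hbb-bs, Hbb-bt and Hba-a1 passed. The part of either RNA in the sex comparison was not tested.

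In lactating against virgin gonadotropes, 0 of 1261 genes passed (0%) with edgeR and 0 with DESeq2, and 13 had an unadjusted p under 0.05. Without lactating library 1, 1 gene passed, Cwc22, chosen after its values were seen (-8.60, edgeR adjusted p = 0.00307). Cga stayed within the spread, at 99.7 and 134 in the lactating and 122 in the virgin library (log2 fold change -0.03 ± 0.83 SE, edgeR adjusted p = 1). Of the lists, 6 transcription factors, 8 GnRH signalling genes and 12 secretion genes could be tested, and 0 passed in either direction. In mt/hGRF against WT female gonadotropes, likewise 0 of 1261 passed (0%) with edgeR and 0 with DESeq2, and 36 had an unadjusted p under 0.05. Without WT female 2 or 3, 1 gene passed (Snhg11 or mt-Co1). Cga was at 53.2 in mt/hGRF and 93.9 and 51.3 in the WT females (log2 fold change -0.68 ± 0.86 SE, edgeR adjusted p = 1). These libraries held 14 to 70 gonadotropes, and the virgin and mt/hGRF groups 1 library each, both of which limit the precision.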

How the data were processed

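Single-cell RNA was counted by the authors per gene and barcode and deposited as counts of UMIs: with Cell Ranger for the 2 10X libraries and after alignment with STAR 2.5.2a to mm10 for the 8 Drop-seq libraries. The deposited counts were used unchanged, and 0 value columns were of samples not listed here. Drop-seq barcodes with at least 300 UMIs and 100 to 4000 genes, and 10X barcodes with 201 to 2999 genes, were kept if under 0.1 of their UMIs were mitochondrial and under 0.01 from ribosomal protein pseudogenes. Doublets were not called. The gate, its gene lists and the tests were chosen with earlier results of these data known.

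Counts of the gated barcodes were summed per library, and levels are UMIs per 10000 UMIs. Comparisons used edgeR 4.0.16 in R 4.3.3 (quasi-likelihood test, TMM scaling, low genes filtered, Benjamini-Hochberg adjusted p under 0.05 over all genes tested), with platform as a term for sex and the library as a block for gonadotropes against other barcodes. Lactating and transgenic comparisons were fitted over the Drop-seq libraries, so that the 1 virgin and the 1 mt/hGRF library are taken to vary like the rest. DESeq2 1.42.0 and other scalings, filters and gates were alternatives. Shares and levels of 3 against 3 libraries were compared by two-sided exact permutation tests (scipy 1.17.1), and intervals are exact Clopper-Pearson 95% intervals. The programs were tested on simulated data.

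The genes named are those of the gate, those of the lists that the files hold, the 15 largest rises and 5 largest falls of the same sign in all 8 libraries of the gonadotrope comparison, and up to 10 non-overlapping genes of each other comparison. Some listed genes are not reported here and are left out of the counts and medians of their lists. Comparing Lhb in lactating and virgin barcodes, the limit of 20% hormone UMIs, leaving out the richest barcode, TMMwsp scaling and the block for the share were added after seeing the data. Promoters were read from RefSeq tables of GRCm38.p6, and gene positions from GENCODE vM21 on GRCm38.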

Additional observations from a re-analysis of the deposited data

How the results depend on the processing

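The higher share of gonadotropes in males kept its sign under 15 alternatives, from 0.902 to 4.03 percentage points. The gate without Fshb gave the smallest gap, 0.902, and the other alternatives counted Fshb, whose level was itself higher in every male than in every female library. The choice by Gnrhr or Nr5a1, not among the 15, turned the order in the Drop-seq pair 2 (2.73% in the female and 2.16% in the male library). The Drop-seq libraries 2 and 3 of both sexes share title tags of unstated meaning and the 10X libraries share only their platform, so the replicate block is a hint from the data. Deviations from the sex means correlated at 0.835 in the 10X pair and 0.457 and 0.756 in the tagged pairs, against -0.736 to 0.347 in the others, each library being closest to its own number. The sex means span both platforms, so the 10X pair and the pairs across platforms cannot separate pairing from platform. Among Drop-seq libraries of unlike tag the correlations were 0.347 (female 3 with male 2) and 0.158 (female 2 with male 3). With the replicate block the share had an exact permutation p of 0.25, the smallest 3 pairs allow. The 955 genes that set gonadotropes apart became 399 with DESeq2, 583 with RLE scaling, 624 in the Drop-seq libraries alone and 624 to 767 with 1 library left out, but more with no filter on low counts, with at least 3 inclusion genes (163 higher and 1066 lower), with at most 20% hormone UMIs (232 and 972) and after thinning (67 and 900). The 4 genes that differed by sex became 8 with the replicate block (Cxcl14, Gria2, Nap1l5 and Snhg11 added), 2 with no platform term, 7 with at most 20% of UMIs from Gh, Prl and Pomc, and 2 to 8 with 1 library left out. Lactation called 1 gene with no filter on low counts, 1 with at most 20% hormone UMIs and 0 to 1 with a library left out, and the transgenic comparison 1 with either WT library left out. The cause of these changes was not tested.

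The log2 difference of Fshb, 3.75 and not past the threshold, passed at 3.995 with the replicate block (edgeR adjusted p = 0.0109), 3.90 with DESeq2, 3.97 with no filter, 3.62 without the 5% of barcodes with the most UMIs, 4.23 with the gate of Gnrhr, Nr5a1 and Tgfbr3l, and 3.56 with at most 20% hormone UMIs; with 1 library left out it was 3.01 to 6.75. Lhb between the sexes was -0.12 with the replicate block and turned to 1.02 in the Drop-seq libraries, 0.14 with DESeq2, 0.44 with no filter, 0.24 with the gate of 3 genes, 1.04 without the richest barcode, and -0.46 to 1.23 with 1 library left out; none passed. Lhb in lactation stayed lower, at -4.59 to -3.80 without either lactating library. The block lost none of the 4 sex calls. Of 1186 values of the named genes against other barcodes, 1060 kept sign and call, 126 lost the call and 0 turned, by the uncentred fold. In libraries of 14 to 85 gonadotropes, depth limits what can be tested.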
